A study of Mus musculus with 9 samples.

Results

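Klf2, Klf4 and Klf5 encode 3 members of the KLF family of transcription factors, and their transcripts were followed in mouse embryonic stem (ES) cells. The genes were the rows of the exon count table whose Ensembl identifier carries one of these symbols in the mm10 annotation, and all 3 were found among 52550 identifiers. Of the 9 libraries, 4 were labelled wild type (WT) and 5 carried the label of a KLF2 and KLF4 double knockout (DKO). Every library came from V6.5, a hybrid ES cell line, grown with LIF and with inhibitors of the kinases GSK and MEK in a medium holding 15% FBS. The labels give neither the deleted part of Klf2 or Klf4 nor the number of clones or cultures behind the replicates, so that p-values speak of the spread among these 9 samples alone, and part of that spread may be technical.

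KLF proteins bind GC-rich and CACCC elements in DNA through zinc fingers at their C-terminal end. In mouse ES cells KLF2, KLF4 and KLF5 bind many of the same sites and can stand in for one another in holding the naive state. Klf4 is known as a target of LIF and STAT3 signalling, Klf2 as a gene that responds to MEK inhibition and, in other cells, to the kinase ERK5 and its MEF2 effectors, and Klf5 as a gene of the inner cell mass and trophectoderm.

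Klf2 (ENSMUSG00000055148) lies on chromosome 8 from 72319033 to 72321656 on the plus strand, with 1 annotated transcript and 1847 bp of exon. Klf4 (ENSMUSG00000003032) lies on chromosome 4 from 55527143 to 55532466 on the minus strand, with 3 transcripts and 3049 bp of exon. Klf5 (ENSMUSG00000005148) lies on chromosome 14 from 99298691 to 99315036 on the plus strand, with 2 transcripts and 5201 bp of exon. The positions are those of build mm10, and no other annotated gene overlaps any of the 3. The promoters of Klf2 and Klf4, the genes the label names, are shown because both moved in the same direction, and that of Klf5, which moved the same way, was not analysed here because the promoter table used has no entry for it. The sequences are the 250 bases before the RefSeq start (GRCm38.p6). This start differs from the annotated one above for both genes. The Klf4 window stops at 55532476, short of the annotated start at 55532466. For Klf2 the window runs past 72319033 to 72319061, so its last bases lie within the annotated gene. Capitals mark GC boxes (GGGCGG on either strand), the MEF2 motif (CTA and TAG with 4 bases between) and the E-box (CACGTG).
Klf2, chr8:72318812-72319061, plus strand: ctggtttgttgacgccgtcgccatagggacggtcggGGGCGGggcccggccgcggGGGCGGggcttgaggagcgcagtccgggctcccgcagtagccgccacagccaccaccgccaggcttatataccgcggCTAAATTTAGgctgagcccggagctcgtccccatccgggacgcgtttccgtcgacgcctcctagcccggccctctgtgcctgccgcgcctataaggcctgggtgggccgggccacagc
Klf4, chr4:55532476-55532725, minus strand: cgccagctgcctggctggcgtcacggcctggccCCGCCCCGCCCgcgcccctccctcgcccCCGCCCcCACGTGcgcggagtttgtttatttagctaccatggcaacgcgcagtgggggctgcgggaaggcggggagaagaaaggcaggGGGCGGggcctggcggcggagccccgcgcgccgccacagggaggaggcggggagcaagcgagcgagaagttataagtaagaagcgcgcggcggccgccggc

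The Klf2 promoter held 2 GC boxes, the kind of element that KLF and SP proteins bind, and that of Klf4 held 4, of which the first 2 overlap by a base. Of 32851 promoter windows of this length, 32.7% held at least 1. The MEF2 motif was found once in the Klf2 window and not in that of Klf4, against 3.20% of all windows. The E-box was found once in the Klf4 window and not in that of Klf2, against 6.02% of all windows. The CACCC box (GGGTGG) occurred once in Klf2, against 28.1% of windows, at -19 from the RefSeq start and so within the annotated gene. The STAT motif (TTCNNNGAA, 7.02% of windows) and TATAAA (12.4%) occurred in neither. All motifs were searched on both strands. A match describes the letters only and shows no binding.

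Library totals ran from 6035642 to 7098530 counts, and 11893 genes had enough reads to be tested. All 6 ES cell markers were present, with a summed level of 1600 to 1724 CPM (read counts relative to the library size after TMM scaling) in WT and 2238 to 2376 in DKO-labelled libraries. The 6 did not move alike. Dppa5a (404 and 789 CPM on average in WT and DKO-labelled libraries) and Sox2 (299 and 492) rose most. Nanog and Esrrb rose less, while Zfp42 (333 and 290) and Pou5f1 (23.9 and 21.5) were lower. Pou5f1 has close copies in the genome and its reads may be split, which was not tested. Summed levels of 6 fibroblast markers were 2.50 to 4.40 CPM in WT and 1.15 to 3.76 in DKO-labelled libraries. Those of 4 endothelial markers were 3.27 to 6.28 and 0.844 to 2.63, those of 4 primitive endoderm markers 1.76 to 3.27 and 0.471 to 1.35, and those of 4 trophectoderm markers 6.43 to 10.1 and 3.74 to 7.38. No sum of these 4 lists of other cell types was higher on average in DKO-labelled libraries, but single genes carried much of the sums. Mean levels in WT and DKO-labelled libraries were 7.27 and 3.89 CPM for Gata3 of trophectoderm. They were 3.26 and 0.785 for Kdr of endothelium and 0.804 and 0.0966 for Thy1 of fibroblasts. Cdx2 (0.777 and 0.986) went the other way, as did Hand1, Col3a1, Postn and Cdh5 at lower levels. No marker of any list was at 0 in all 9 libraries, although Cdh5, which defines endothelium, had 0 counts in WT and 2 in DKO-labelled libraries. In bulk samples fewer cells of a type and less RNA per cell cannot be told apart.

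Transcripts of Klf2, Klf4 and Klf5 were all more abundant in DKO-labelled libraries than in WT. The rise was 1.34-fold for Klf2, 1.88-fold for Klf4 and 2.42-fold for Klf5. Klf2 and Klf4 are the genes the label names, so these counts go against the label if the reads come from the deleted part. QuantSeq reads come from the 3' end of a transcript and check nothing where the deletion lies elsewhere, and directions are therefore given for the libraries as labelled. All 3 genes passed edgeR's test upward, where 23.9% of the genes tested did. In all 3, every DKO-labelled library lay above every WT library, which held for 18.4% of the genes tested.

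Klf2, known to respond to MEK inhibition, stood at 455, 467, 448 and 468 CPM in WT 1 to 4. It stood at 594, 599, 615, 633 and 635 CPM in DKO-labelled libraries 1 to 5. The lowest DKO-labelled library was 1.27 times the highest WT library, and both groups were narrow. On the log2 scale the change was 0.42 ± 0.04 (SE, with an adjusted p of 6.2e-10 in edgeR). Leaving out any 1 library kept it between 0.41 and 0.43. Of the genes tested, 1641 (13.8%) passed with a rise at least as large.

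Klf4, one of the reprogramming factors, stood at 877, 775, 863 and 878 CPM in WT 1 to 4. It stood at 1403, 1599.8, 1769, 1677 and 1527 CPM in DKO-labelled libraries 1 to 5. WT 2 lay below the other WT libraries, and DKO-labelled libraries spread from 1.65 to 2.09 times the WT mean. The groups stood far apart, with the lowest DKO-labelled library at 1.60 times the highest WT library. The change in log2 was 0.91 ± 0.06 (SE, adjusted p of 8.6e-14 in edgeR), and 588 genes (4.94% of those tested) passed with a rise at least as large.

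Klf5, which the label does not name, stood at 169, 153, 188 and 147 CPM in WT 1 to 4. It stood at 319, 384, 397, 514 and 374 CPM in DKO-labelled libraries 1 to 5. DKO 4 was the highest at 3.12 times the WT mean and DKO 1 the lowest at 1.94 times, and the groups were again apart, with the lowest DKO-labelled library at 1.70 times the highest WT library. Its change in log2 was 1.27 ± 0.15 (SE, adjusted p of 1.4e-04 in edgeR), and 290 genes (2.44%) passed with a rise at least as large. Without DKO 4 the mean of DKO-labelled libraries went from 398 ± 71.4 to 368 ± 34.1 CPM (SD, n = 5 and 4) and the log2 fold change to 1.16. Mitochondrial transcripts took 1.30% to 1.54% of counts in WT, 1.77% to 1.92% in DKO 1 to 3, 2.30% in DKO 4 and 2.41% in DKO 5. The mitochondrial share was higher in every DKO-labelled library than in every WT library, so it cannot be told apart from the label. Any part of this share in the Klf5 result was not tested.

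**Figure D1:**
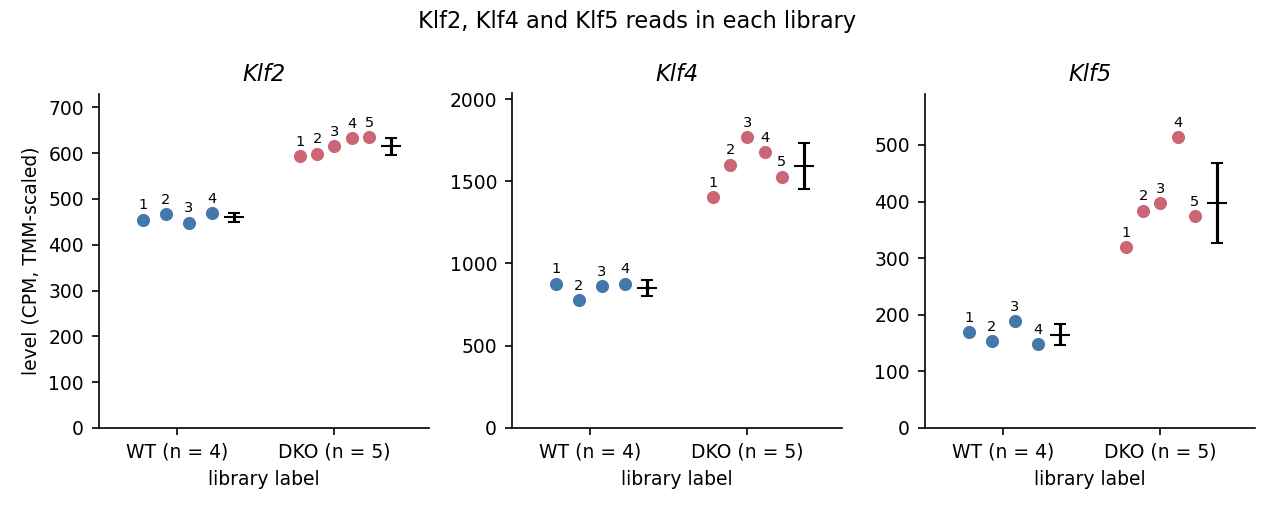
Level of each gene (CPM on TMM-scaled library sizes, linear axis from 0) in each library, numbered by replicate, with the mean ± SD of 4 WT and 5 DKO libraries as labelled. For all 3 genes every DKO-labelled library lies above every WT library. In CPM the spread of DKO-labelled libraries is widest for Klf4 (SD of 140, against 71.4 for Klf5). Relative to the mean it is widest for Klf5 (coefficient of variation of 18.0%, against 8.78% for Klf4), from 319 to 514 CPM.

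The 3 genes differed in how closely replicates agreed. Klf2 had a coefficient of variation of 2.15% in WT and 3.08% in DKO-labelled libraries, where counting error alone gives 1.79% and 1.61%. Klf4 had 5.79% and 8.78%, against 1.32% and 0.9997% from counting. Klf5 had 11.2% and 18.0%, against 2.997% and 2.01%. The spread of Klf5 was thus above counting error in both groups and that of Klf4 in DKO-labelled libraries, and that of Klf2 was close to it in WT. The WT spread of Klf4 rested on WT 2, without which it was 0.963%, under the counting error of 1.29%. For Klf5 it went to 7.23% in WT without WT 3 and to 9.24% in DKO-labelled libraries without DKO 4. Without any other single library none of the 6 values moved by as much as 1.5 times.

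Set against 1938 genes of at least 100 CPM in both groups, Klf2 was among the steadier and Klf5 among the more variable. The share of these genes with a smaller SD of log2 CPM was 9.44% in WT and 13.3% in DKO-labelled libraries for Klf2. It was 70.1% and 87.8% for Klf4, and without WT 2 the WT share was 3.56%. For Klf5 it was 98.2% and 99.7%, and it went to 86.1% in WT without WT 3 and to 89.0% in DKO-labelled libraries without DKO 4. These are descriptions of the 9 libraries, with no test.

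Reads of the 3 genes within the same library were compared next, since such a ratio needs no scaling between libraries. Klf4 gained on Klf2, and Klf5 gained on both. There were 1.93, 1.66, 1.93 and 1.88 Klf4 reads per Klf2 read in WT 1 to 4 and 2.36, 2.67, 2.87, 2.65 and 2.40 in DKO-labelled libraries 1 to 5. The groups did not overlap, and the ratio was 1.85 ± 0.127 in WT and 2.59 ± 0.210 in DKO-labelled libraries (SD, n = 4 and 5, exact permutation p = 0.00794, 2-sided).

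Klf5 reads per Klf2 read went from 0.315 to 0.421 in WT and from 0.538 to 0.812 in DKO-labelled libraries. The means were 0.359 ± 0.0480 and 0.645 ± 0.103 (SD, n = 4 and 5, exact permutation p = 0.00794), a 1.79-fold difference. Klf5 reads per Klf4 read went from 0.168 to 0.218 in WT and from 0.224 to 0.306 in DKO-labelled libraries. Here the highest WT library, WT 3, almost met the lowest DKO-labelled library, DKO 3, and the means were 0.194 ± 0.0207 and 0.249 ± 0.0334 (SD, n = 4 and 5, exact permutation p = 0.00794), a 1.28-fold difference. The Benjamini-Hochberg (BH) value over the 3 ratios was 0.00794 for each, which is also the smallest p that 126 divisions of 9 libraries can give. Within a library these ratios show unequal change, not which of the genes changed.

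**Figure D2:**
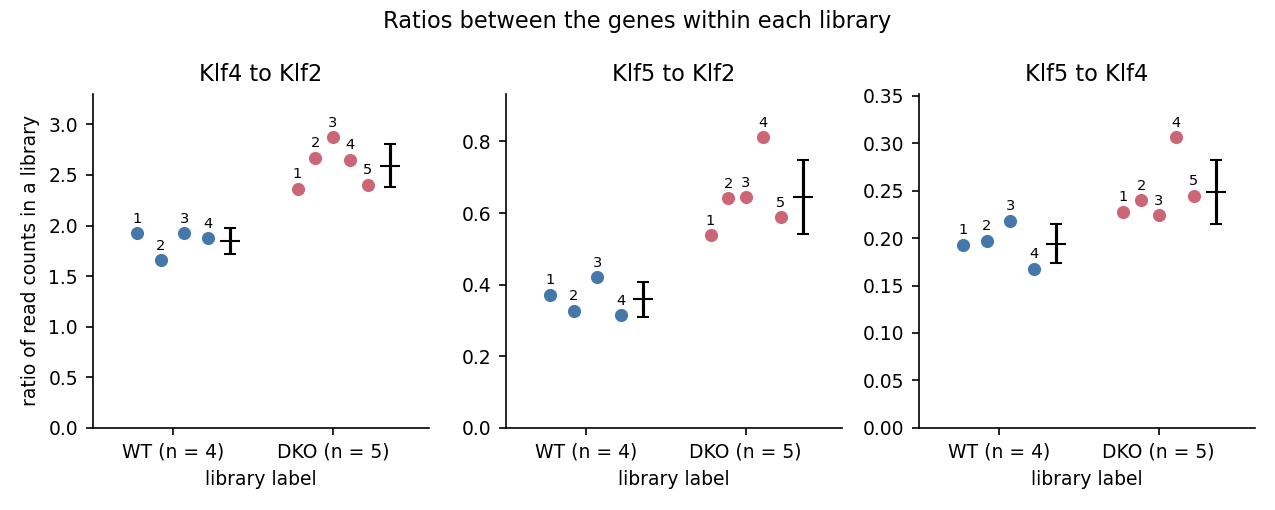
Ratio of read counts between pairs of the genes within each library (linear axis from 0), numbered by replicate, with the mean ± SD of 4 WT and 5 DKO libraries as labelled. The groups are apart in all 3 ratios, narrowly for Klf5 to Klf4 (0.218 in the highest WT library and 0.224 in the lowest DKO-labelled library), and DKO 4 lies above the rest in both ratios with Klf5.

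Summed over the 3 genes, reads came to 1464 ± 45.6 CPM of the library total in WT and 2604 ± 184 in DKO-labelled libraries (SD, n = 4 and 5). Klf4 supplied most of them in both groups, 57.6% ± 1.44 in WT and 61.1% ± 1.65 in DKO-labelled libraries. The part of Klf2 was 31.3% ± 1.61 and 23.7% ± 1.57, and that of Klf5 was 11.2% ± 1.11 and 15.2% ± 1.74. Of all reads on the 17 genes Klf1 to Klf17, the 3 genes held 62.1% ± 1.38 in WT and 74.0% ± 1.72 in DKO-labelled libraries.

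Levels were compared between genes per kb of exon. The kit reads transcript ends, so a level in CPM per kb is lower for a long transcript than its number of molecules would give, and Klf5 has the most exon of the 3. On this scale Klf4 was the most abundant member of the whole KLF family in both groups, at 278 ± 16.1 CPM per kb in WT and 523 ± 45.9 in DKO-labelled libraries (SD, n = 4 and 5). Klf2 came next at 249 ± 5.34 and 333 ± 10.3. Per kb these 2 neighbours in the order were close in WT, with Klf4 at 1.01 times Klf2 in WT 2 and at most 1.17 times in the other WT libraries. In DKO-labelled libraries Klf4 was 1.43 to 1.74 times Klf2 per kb. The closeness in WT depends on the scale, since in CPM without regard to length Klf4 was 1.66 to 1.93 times Klf2 there. In DKO-labelled libraries Klf4 was 2.36 to 2.87 times Klf2 in CPM. Klf5 had 31.6 ± 3.54 and 76.4 ± 13.7 CPM per kb, below Klf2 in all 9 libraries. In WT Klf5 did not differ beyond its spread from Klf6, a widely expressed relative, at 32.5 ± 0.798. This order depends on the scale, since in CPM without regard to length Klf5 stood at 164 ± 18.4 and Klf6 at 143 ± 3.50 in WT, with Klf5 the higher in 4 of 4 libraries against 2 of 4 per kb. In DKO-labelled libraries it was close to Klf9, a steroid-responsive member, at 85.3 ± 3.65, and above Klf6 at 45.5 ± 3.34, as it was in CPM (398 ± 71.4 and 199.8 ± 14.7).

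The other KLF genes did not share one direction. Of 14 listed, 11 were tested, 3 rose (27.3%, against 23.9% of all genes tested) and 3 fell (27.3% against 24.0%), both near the background. The median log2 fold change was -0.10, and 0.01 over all genes tested. Klf6 rose by a log2 fold change of 0.48, Klf10, induced by TGF-beta, by 0.40 and Klf9 by 0.12, a call lost without WT 1, WT 3, DKO 3, DKO 4 or DKO 5 (edgeR adjusted p = 0.0520 to 0.123). Klf3, which recruits the corepressor CtBP, fell by 0.90 on the log2 scale, Klf8, another CtBP-binding member, by 0.76 and Klf15 by 0.48. Klf13 (-0.09) and Klf16 (-0.10) did not pass. Klf12, Klf14 and Klf17 had too few reads to be tested, with 9, 5 and 7 counts summed over the WT libraries and 10, 1 and 24 over those labelled DKO. No other tested KLF gene rose by as much as Klf4 or Klf5. With all 9 libraries Klf6 (0.48 ± 0.06, SE) was the only other tested one above Klf2 (0.42 ± 0.04). Klf10 (0.40 ± 0.09) lay within its error of Klf2. Without WT 3, WT 4, DKO 3 or DKO 4 the rise of Klf10 was the larger (0.45 against 0.42 without DKO 3).

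**Figure D3:**
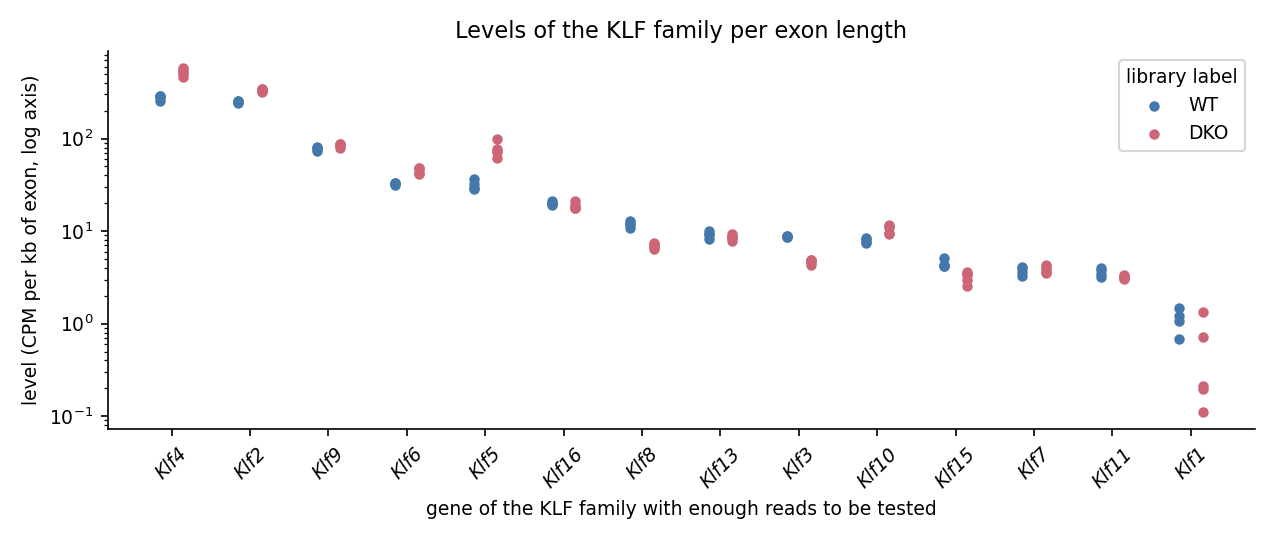
Level of each KLF gene with enough reads to be tested, in CPM per kb of exon on a log axis, with 1 point per library and zero values left out. Klf4 and Klf2 head the family in both groups, and Klf5 lies level with Klf6 in WT (31.6 and 32.5 on average) and above it in DKO-labelled libraries (76.4 and 45.5).

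Genes that carry signals to these 3 genes were then examined from lists. In the LIF and STAT3 list, 10 of 10 genes were tested, 3 rose and 2 fell, with a median log2 fold change of 0.09. Over all genes tested 23.9% rose and 24.0% fell, so that these counts are about those of the background. Lif itself rose by 1.64 from a low level (1.22 ± 0.384 to 3.81 ± 1.11 CPM), and the receptor chains Lifr (0.38) and Il6st (0.34), the latter encoding gp130, rose by smaller amounts. The kinase Jak1 (-0.30) and the phosphatase Ptpn11 (-0.27) fell. Stat3 did not pass, at 244 ± 13.0 CPM in WT and 247 ± 27.9 in DKO-labelled libraries, and neither did Socs3 (0.12), the feedback inhibitor.

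For the targets of the 2 inhibitors and their pathways, 10 of 10 listed genes were tested, 2 rose and 2 fell, with a median of 0.04, again close to the background of 23.9% up and 24.0% down. Ctnnb1 (0.24), which encodes beta-catenin, was among those that rose. Braf (-0.39) and Gsk3b (-0.21) fell, and Tcf7l1 (0.09), a repressor relieved by beta-catenin, did not pass. Of 8 genes of the ERK5 and MEF2 route to Klf2, 6 were tested, 1 rose and 1 fell (16.7% each way, against 23.9% and 24.0% of all genes). Mef2a rose by 0.43 (edgeR adjusted p = 0.0151) and Mef2d fell by 0.20 in log2 (edgeR adjusted p = 0.0470), while Mapk7, which encodes ERK5, had 13.0 ± 2.92 CPM in WT and 12.3 ± 1.45 in DKO-labelled libraries and did not pass. The Mef2a call was lost without WT 2, WT 4 or DKO 2 (edgeR adjusted p = 0.0513 to 0.113). The Mef2d call was lost without WT 1, WT 2, WT 3, DKO 1, DKO 3 or DKO 5 (edgeR adjusted p = 0.0630 to 0.191) and under 4 other settings (0.0548 to 0.0652).

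Among genes of the naive network, which share regulatory sites with the KLF factors, more rose than fell. Of 16 tested 10 rose, or 62.5% against 23.9% of all genes, and 3 fell, or 18.8% against 24.0%, with a median log2 fold change of 0.26. Gbx2 (1.20), Nr0b1 (1.08), Sox2 (0.72) and Tfcp2l1 (0.49) had the smallest adjusted p among those that rose. Fgf4 (-0.22), Zfp42 (-0.20) and Fbxo15 (-0.14) fell, the last with its call lost without WT 2 (edgeR adjusted p = 0.0557), and Nr5a2 (-0.03) did not pass. With all 9 libraries these 10 rises were smaller than that of Klf5, and 2 of them (Gbx2 and Nr0b1) exceeded that of Klf4. Gbx2 (1.20 ± 0.12, SE) and Klf5 (1.27 ± 0.15) lay within their errors, however. Gbx2 was above Klf5 without WT 4 (1.23 and 1.22) and without DKO 4 (1.18 and 1.16). That naive genes were on balance higher was known from these data, so that the count is no independent evidence.

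Of 12 genes for cofactors and for turnover or export of KLF proteins, 5 rose (41.7%, against 23.9% of all genes) and 2 fell (16.7% against 24.0%), with a median of 0.14. The acetyltransferases Crebbp (0.40) and Ep300 (0.29) rose, as did the corepressor Ctbp2 (0.37). So did Fbxw7 (0.32) and Wwp1 (0.30), which encode ubiquitin ligase components that act on KLF5. The exportin Xpo1 (-0.18) and the deacetylase Hdac2 (-0.16) fell, while Ctbp1 (-0.08) and Hdac1 (0.11) did not pass. Over the 6 lists together, 24 of 65 tested genes rose (36.9%, against 23.9% of all genes). Of the 65, 13 fell, where 24.0% of all genes did. Of the 24 rises, 10 are those of the naive network.

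**Figure D4:**
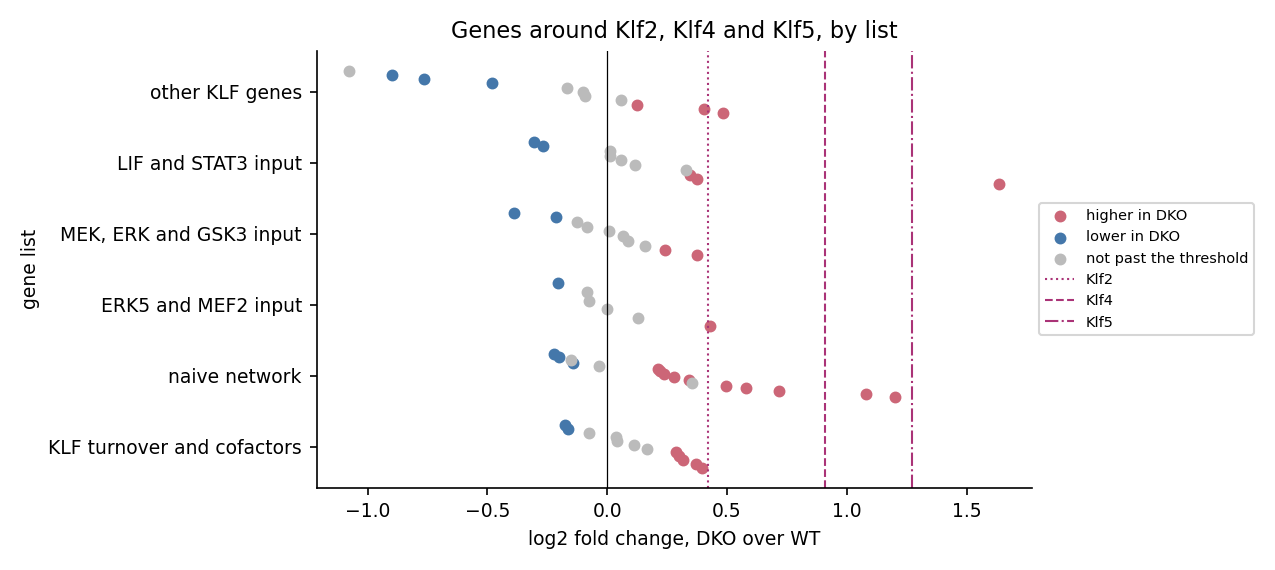
Log2 fold change of each tested gene in 6 lists around the KLF genes, coloured by whether it passed edgeR's test and in which direction, with vertical lines at Klf2 (0.42), Klf4 (0.91) and Klf5 (1.27). In the naive network 10 of 16 genes lie to the right as rises, whereas the signalling lists gather near 0 except for Lif at 1.64.

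Each gene was set against its neighbours along the chromosome, and all 3 stood above all 10 of their nearest tested genes. Among the nearest neighbours of Klf2 more genes fell than rose. Of its 10 neighbours, which span 0.544 Mb, 7 fell and 2 rose, where 24.0% and 23.9% of all genes tested did, with a median log2 fold change of -0.54, so that Klf2 at 0.42 stood 0.96 above them. On the side of lower coordinates the nearest tested gene was Ap1m1, an adaptor subunit that did not pass (-0.16), with falls of Fam32a (-0.40) and the GTPase gene Rab8a (-0.63) and then rises of Tpm4 (0.35) and Zfp961 (0.23). On the other side the nearest was Eps15l1 (-0.69), and all 5 genes there fell, of which the call of 1700030K09Rik was lost without WT 3 (edgeR adjusted p = 0.144). Over 1 Mb either way, 27 genes of lower coordinate had a median of 0.35 and 9 of higher coordinate a median of -0.60. Of all 36 genes, 15 rose and 13 fell, where 23.9% and 24.0% of all genes tested did. Klf2 stood 0.25 above the median of the 36, with 10 of them above it.

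Klf4 and Klf5 lay among genes that moved little. The 10 neighbours of Klf4, of which 2 rose and 2 fell, had a median of -0.03, of which Klf4 stood 0.94 above. On the side of lower coordinates the nearest was Rad23b (-0.09, of DNA repair), which lay 177 kb away by start and did not pass. Zfp462 (0.16) and the pseudogene Rps15a-ps8 (0.35), whose reads are uncertain, rose, and Epb41l4b (-1.01) was among those that fell. Both rises were near the threshold, and the call was lost under 13 of 19 other settings for Zfp462 (edgeR adjusted p up to 0.167) and under 10 for Rps15a-ps8 (up to 0.118). The 10 neighbours of Klf5 had a median of -0.03, of which Klf5 stood 1.30 above. Its nearest, Pibf1 (0.17), did not pass and Tbc1d4 (-0.70), a GTPase-activating protein of glucose transport, was the one that passed, downward.

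**Figure D5:**
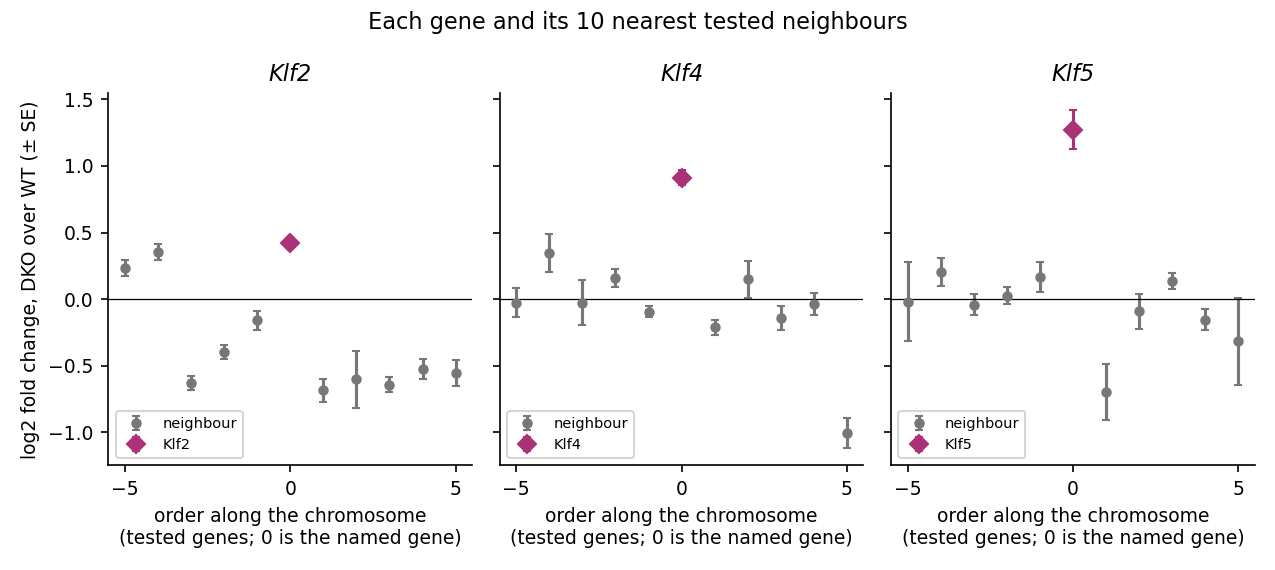
Log2 fold change ± SE of each gene (diamond) and the 5 nearest tested genes on either side (circles) in their order along the chromosome. All 3 genes lie above their 10 neighbours, most of which fall around Klf2 (median -0.54) and lie near 0 around Klf4 and Klf5 (median -0.03 for each).

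The genes whose profile over the 9 libraries was most like each of the 3 were ranked by the root mean square difference of log2(CPM + 1), each centred on its WT mean, among 6479 genes of at least 20 CPM in a group. Most like Klf2 were Pi4ka, a lipid kinase, at a difference of 0.03, then Epc2, the polycomb subunit gene Suz12, Ndufb11 of respiratory complex I and the condensin gene Ncapd2, each at 0.04. Most like Klf4 were Ccng1, a p53 target, at 0.08, then Pcyox1l and Csrp2 at 0.09, Fam213a at 0.10 and the palmitoyltransferase gene Zdhhc2 at 0.11. Most like Klf5 were Serping1, which encodes the C1 inhibitor, at 0.17, the mitochondrial ADP/ATP carrier Slc25a4 at 0.18, Cald1 at 0.19 and Gng2 and Mtss1 at 0.20. No close match to Klf5 was found at the distances seen for Klf2. The measure includes the scatter among replicates, which was larger for Klf5. Its SD of log2 CPM was 0.159 in WT and 0.248 in DKO-labelled libraries, against 0.031 and 0.044 for Klf2. Among the 3 themselves, Klf4 and Klf5 were nearest, at a difference of 0.30, with Klf4 the 70th most like Klf5 and Klf5 the 339th most like Klf4. Klf2 and Klf4 differed by 0.38 and Klf2 and Klf5 by 0.65. With profiles centred on WT, these differences mostly restate the log2 fold changes of 0.42 for Klf2, 0.91 for Klf4 and 1.27 for Klf5. The genes first in rank likewise had nearly the log2 fold change of their member (Pi4ka 0.42, Ccng1 0.91 and Serping1 1.28). The ranking is thus no separate evidence of a shared profile.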

How the data were processed

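For each Ensembl gene the authors deposited raw whole-number counts of exon reads in 9 libraries, made from 600 ng of total RNA with the QuantSeq 3' kit, per the labels' protocols. The submitters' processing notes name build mm10 and cutadapt, STAR, featureCounts and DESeq2. Not given in the sources used here are the annotation release, the strand setting and how multi-mapped reads were handled. Identifiers were matched to GENCODE mouse release 21 (52403 matched, 147 did not). The 16 pairs of libraries within a group differed by a chi-square per degree of freedom of 2.31 to 5.40, so none was counted as a duplicate.

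Genes were kept with filterByExpr, scaled by TMM and tested on all 9 libraries with the robust quasi-likelihood test of edgeR 4.0.16 in R 4.3.3, with the group label as the only term. An adjusted p (BH over all 11893 genes) under 0.05 counts as passing. A floor of 3 counts is 0.423 to 0.497 CPM, and it covers counting error only. CPM values use the TMM-scaled totals of tested genes. Ratios within a library were compared by exact permutation. The script was tested on simulated data. Alternatives were other scalings, DESeq2 1.42.0, limma-voom (limma 3.58.1), other filters, a replicate block and leaving out each library.

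The members and lists were chosen with earlier results of these data known. Named were the 3 genes, up to 4 passing genes a list by adjusted p with up to 2 not passing at 50 CPM or more, the 5 most alike genes without predicted names, and the nearest tested gene on each side. Klf9, Klf15, Il6st, Fgf4, Zfp42, Fbxo15, Wwp1, Xpo1, Hdac2, Mapk7, Pou5f1, Cdh5, the other single cell type markers and further neighbours were named after their values were seen. A few others that meet the rule are not reported here.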

Additional observations from a re-analysis of the deposited data

Results flagged for a closer look

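In WT, the Klf4 level of 775 CPM in WT 2 lay apart from the other 3 libraries (863 to 878), and this gap made up 0.852 of the range of the group, above the limit of 0.829 for 4 samples. Among the libraries labelled DKO, the ratio of Klf5 to Klf4 reads in DKO 4 (0.306) lay apart from the other 4 (0.224 to 0.245), and on the log2 scale this gap made up 0.720 of the range, above the limit of 0.710 for 5 samples. Chance flags about 1 in 20 such groups, and 12 were checked. Without WT 2 the log2 fold change of Klf4 was 0.87, and without DKO 4 the log2 ratio of Klf5 to Klf4 differed by 0.28 between the groups in place of 0.35 (exact permutation p = 0.0286).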

How the results depend on the processing

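Klf2, Klf4 and Klf5 kept their direction and passed under all 19 alternatives run for each. Leaving out 1 library gave log2 fold changes of 0.41 to 0.43 for Klf2, 0.87 to 0.95 for Klf4 and 1.16 to 1.34 for Klf5. The ratios kept p under 0.05 without any 1 library (exact permutation p = 0.0179 to 0.0357). The genes called went from 2468 to 2918 up and 2475 to 3157 down over the other settings. Replicate numbers paired the samples poorly, with same-number correlations of 0.07, 0.01, 0.07 and 0.03, although 3 of 4 WT libraries correlated best with their own number. With the replicate block 2699 genes rose and 2798 fell, and Klf2, Klf4 and Klf5 had 0.41, 0.92 and 1.28. The paired differences in log2 ratio were 0.51 for Klf4 to Klf2, 0.87 for Klf5 to Klf2 and 0.36 for Klf5 to Klf4, each at an exact sign-flip p of 0.125, the smallest that 4 pairs allow. In the ERK5 and MEF2 list the fall of Mef2d left 0 genes down with library totals only, with DESeq2, without a filter and with the replicate block, and leaving out 1 library gave 0 to 1 up and 0 to 1 down. The spread of each gene within a group, recomputed without each library in turn (chosen after seeing the data), moved by over 1.5 times for Klf4 in WT without WT 2 (5.79% to 0.963%) and for Klf5 without WT 3 (11.2% to 7.23%) or DKO 4 (18.0% to 9.24%). The difference of Klf2 from its neighbours was 0.86 with 10 genes on each side and 0.25 within 1 Mb. Of the 5 genes most like Klf5, 2 were shared with the 5 found from genes of at least 5 CPM. The log2 fold change of Stat3 changed sign without WT 2, WT 4, DKO 1 or DKO 3, in a range of -0.032 to 0.054 over left-out libraries, and that of Nr5a2 without DKO 2, in a range of -0.061 to 0.0057, none past the threshold. The cause of these changes was not tested beyond the smaller number of samples or genes. Klf12, Klf14 and Klf17 were too shallow to be tested with the filter used.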
